A study of Homo sapiens with 4 samples.

Results

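Ochre stops followed by a purine are the human transcripts that end in UAA with A or G as the next base. They were taken from the annotation columns of the deposited tables, and no read count was used in the choice. A transcript could enter if it was listed for at least 1 sample. The samples listed from 8838 to 9031 transcripts each, so the listing itself may depend on reads. Beyond the stop signal, 2 further limits were set. The 3′UTR had to hold at least 1 further stop codon in frame (a 3′ termination codon, 3′TC), and the first one had to lie at most 200 nt past the normal termination codon (NTC). This gave 1416 of the 9271 transcripts listed, 867 of them with UAAA and 549 with UAAG, 1 transcript for each gene. UAA followed by a purine ended 1568 transcripts in all, of which 93 were outside on length and 59 had no in-frame 3′TC.

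The data come from ribosome profiling, in which the stretches of mRNA covered by ribosomes survive a nuclease and are sequenced. The cells were HEK293T, an embryonic kidney line that carries the simian virus large T antigen. Untreated cells gave 2 libraries (A and B), as did cells given the aminoglycoside G418 at 500 µg/mL for 24 hr, with no other agent in either group. The libraries held 6082600 and 2440204 reads on mRNAs in untreated cells and 5677910 and 4763858 with G418. The study describes A and B as biological replicates, and the errors here are the spread between them. Of the kidney line's 6 markers, VIM (533 to 658 RPKM on the coding sequence), NEFL, NEFM, KRT18 and KRT8 (1.45 to 2.13 RPKM) were listed in every library, and PAX2 (1.04 and 1.36 RPKM) with G418 alone. Of 6 markers of other cell types, the fibroblast collagen gene COL1A1 was listed in every library (3.59 to 5.54 RPKM), and PTPRC, CD34, ALB, COL1A2 and HBB, which mark blood, liver and fibroblasts, in none.

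In eukaryotes the release factor eRF1 reads all stop codons, and the mRNA is pulled tight in the A site so that the base after the stop codon is packed into the same pocket. A purine there stacks well on ribosomal RNA, and UAA with a purine is known from reporter work as a signal that terminates well. When a near-cognate tRNA wins over eRF1, the ribosome reads through the NTC and goes on in frame to the first 3′TC. G418 binds the decoding center of the small subunit and makes near-cognate tRNAs easier to accept, so ribosomes build up past the NTC.

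Readthrough was measured as the ribosome readthrough score (RRTS), the density of ribosomes between the NTC and the first 3′TC as a percentage of the density on the CDS of the same transcript. By its deposited length this region takes in the first 3′TC itself. The paper reports that ribosomes gather at the in-frame 3′TC with G418, and their part in RRTS was not tested. Members among the 8 with the highest RRTS in G418-treated cells, of those with at least 20 reads before the first 3′TC in each G418 library, had the following sequences around the NTC. Of these 8, SZRD1 and SDCBP are not shown. Each is shown 5′ to 3′ as 30 nt of RNA from GENCODE version 44, with the last 5 sense codons first and with the stop codon and its next base in capitals.
HNRNPA3: gguagcagaagguucUAAAaacagcagaaa
PGRMC1: gcccggaaaaaugauUAAAgcauucagugg
HNRNPD: agcuacaaaccauacUAAAuuauuccauuu
GNAS: caguacgagcugcucUAAGaagggaacccc
RPL12: gaaugcccagccaguUAAGcacaaaggaaa
PDIA3: gcacaggaggaucucUAAAgcaguagccaa
On hg38 the stop codons are at chr2:177219297-177219299 on the plus strand (HNRNPA3), chrX:119243252-119243254 on the plus strand (PGRMC1), chr4:82355334-82355336 on the minus strand (HNRNPD), chr20:58910827-58910829 on the plus strand (GNAS), chr9:127447721-127447723 on the minus strand (RPL12) and chr15:43771216-43771218 on the plus strand (PDIA3). Every one closes the CDS, and the lower case letters after it are 3′UTR.

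Members with very low RRTS in G418-treated cells and a stop codon that the gene's reference (MANE Select) transcript also uses had the following sequences, shown in the same way for comparison.
RPL41: aggcagagguccaagUAAAccgcuagcuug
MRPL52: ccacuuccaagucaaUAAAaagcaacuccu
RPS26: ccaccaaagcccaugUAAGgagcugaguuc
RANBP1: gcugaggagaagcaaUAAAucgucuuauuu
Their stop codons are at chr12:56117522-56117524 (RPL41), chr14:22834319-22834321 (MRPL52), chr12:56044152-56044154 (RPS26) and chr22:20127050-20127052 (RANBP1), all on the plus strand. Both sets hold UAAA and UAAG, so the 4 capital letters do not separate them.

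RRTS of UAA followed by a purine was low in untreated cells and rose with G418, but to a lower level than at any other stop signal. RRTS takes all reads of the region as readthrough. In untreated cells the paper found 3′UTR ribosomes spread equally over all reading frames. Untreated RRTS here and below, and ratios to it, are therefore not shown to measure readthrough. Comparisons used the 1046 members listed in all 4 libraries above the minimum of mRNA reads that the authors set for RRTS, applied to each condition, and RRTS was first summed over them, as reads found before the first 3′TC over reads expected there from the CDS density. It was 2.35% and 2.11% in untreated cells (2.23% ± 0.164, SD, n = 2), from 1821 and 638 reads. With G418 it was 10.7% and 9.88% (10.3% ± 0.549, SD, n = 2), from 7401 and 5727 reads. All G418 values lay above all untreated values, a 4.61-fold rise, though an exact 2-sided permutation test of 2 against 2 libraries gives p = 0.333, the smallest it allows. Weighting every member equally gave higher levels, 4.13% in untreated and 17.6% in G418-treated cells.

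Other stop signals under the same length rule rose further. With G418, UAA followed by a pyrimidine reached 17.5% and 17.0% (629 transcripts), UAG followed by a purine 15.2% and 14.5% (686 transcripts) and UGA followed by a purine 22.2% and 21.3% (1813 transcripts). The members' RRTS was 0.596 ± 0.018 of the first, 0.692 ± 0.012 of the second and 0.472 ± 0.011 of the third (ratio within each library, SD, n = 2). In untreated cells the same ratios were 0.939 ± 0.007, 1.46 ± 0.008 and 1.01 ± 0.061. The members thus had the lowest RRTS of these 4 sets in both G418 libraries and in neither untreated library, where UAG followed by a purine was lowest. Among all 12 stop codons with their next base, UAAA and UAAG were the lowest and the second lowest in both G418 libraries. In both untreated libraries UAAG was the fifth and UAAA the seventh from the bottom.

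**Figure D1:**
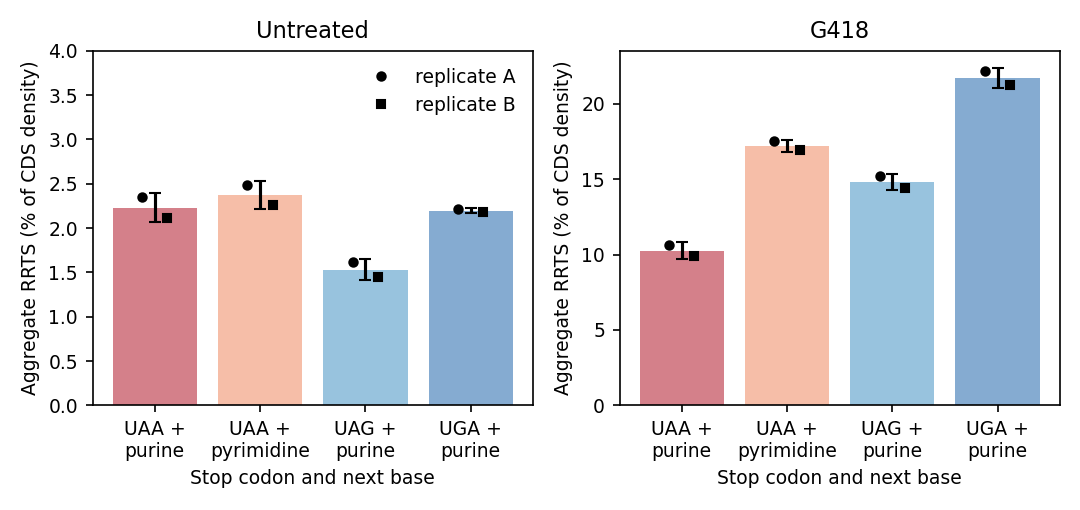
Aggregate RRTS, in percent of the CDS density, for members (UAA + purine) and the 3 other sets under the same length rule, in untreated (left) and G418-treated cells (right); the vertical scales differ. Bars are means of 2 libraries, error bars SD, and points single libraries; members are lowest with G418 (10.7% and 9.88%) but not without it.

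The base after the stop codon did not order the members. With G418, UAAA members (640 compared) had an RRTS of 10.1% and 9.73% and UAAG members (406 compared) 11.4% and 10.1%. Their ratio, 0.925 ± 0.055, turned to 1.16 when every transcript had the same weight, to 1.05 with regions of at most 100 nt and to 1.09 without RPL41. RPL41, a ribosomal protein with a very short coding sequence, alone took 9.54% and 9.61% of the reads expected for all members in the G418 libraries.

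In members RRTS fell with the distance to the first 3′TC. The gap between members and UAG followed by a purine was smallest in the shortest regions and largest in the longest. UAG followed by a purine did not fall steadily, with G418 means of 17.1%, 15.4%, 12.3% and 17.1% from the shortest regions to the longest. Since the region takes in the first 3′TC, reads on it weigh most in short regions, and their part in the fall was not tested. The median distance was 54 nt in the compared members and 60 nt in all other transcripts under the same rule. With G418, members at 18 to 30 nt had 18.2% and 15.9%, those at 31 to 60 nt 13.2% and 11.9%, those at 61 to 100 nt 11.5% and 10.9%, and those at 101 to 200 nt 7.14% and 6.82%. In untreated cells the means were 3.35%, 3.22%, 2.64% and 1.17% in the same order. At 18 to 30 nt the members (17.0% ± 1.58) and UAG followed by a purine (17.1% ± 0.490) overlapped, and over all regions of at most 100 nt the ratio to UAG was 0.916. At 101 to 200 nt UAG followed by a purine stood at 17.1% ± 0.827, against 6.98% ± 0.222 in members (SD, n = 2). There a single transcript with UAG, HSPA1B, a heat shock protein with a near-identical copy, held 618 of 2807 and 449 of 2223 reads, and among members RPL41 held 6628 of 27618 and 5572 of 23010 expected reads. Without HSPA1B the UAG value was 14.3% ± 0.455, and without RPL41 the members' value was 8.99% ± 0.256 (SD, n = 2), both chosen after seeing the data. When transcripts were limited to MANE Select stop codons, explained below, UAG followed by a purine was above the members at 18 to 30 nt too (17.6% ± 0.536 against 16.2% ± 1.02, SD, with no overlap of the libraries). The same held at 31 to 60 nt (18.5% and 17.5% against 14.1% and 12.6%) and 61 to 100 nt (20.1% ± 0.359 against 11.0% ± 0.474, SD). Over all compared transcripts the values at 61 to 100 nt were 12.3% ± 0.273 against 11.2% ± 0.433 (SD). The near-equal levels up to 100 nt thus depended on which transcripts were included. UGA followed by a purine, at 19.7% to 26.5%, was above the members at every distance, and UAA followed by a pyrimidine was too, at 12.2% and 12.3% for the longest regions and 22.7% and 21.2% for the shortest.

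**Figure D2:**
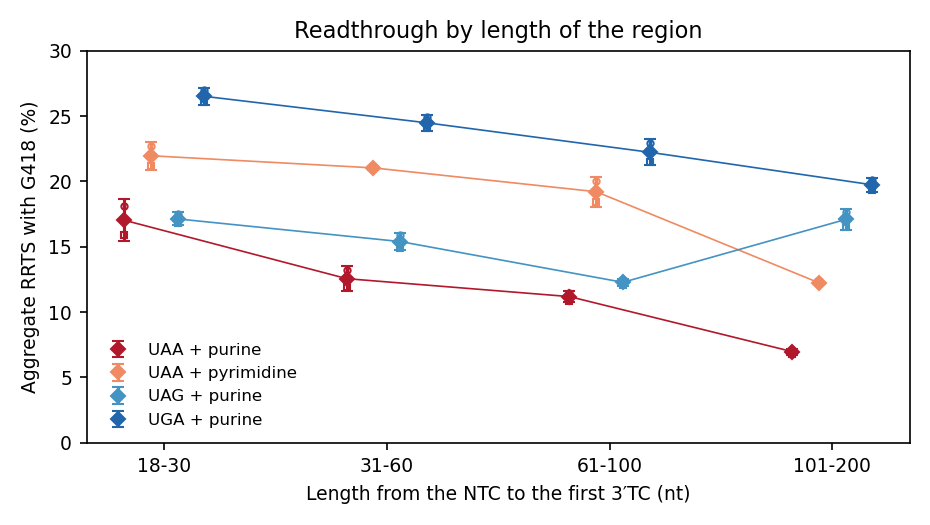
Aggregate RRTS with G418, in percent of the CDS density, by the length of the region between the NTC and the first 3′TC, for the 4 sets. Diamonds are means of 2 libraries with SD, small open symbols the libraries, and lines join the means; members (red) fell from 17.0% to 6.98% with length and met UAG + purine at 18-30 nt.

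The edge of the length rule was not a break in the values. At 198 nt, the longest region kept, KBTBD4 had RRTS of 47.5% and 49.6% with G418 and RBM23 6.71% and 4.39%. At 201 nt, the shortest region left out, XRN2 had 21.9% and 14.8% and CDK16 4.33% and 4.84%. Both sides of the limit thus held high and low values.

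Many single members held too few reads for a value. An RRTS of 0 was listed for 56.4% and 75.4% of compared members in the untreated libraries and for 26.4% and 30.1% in the G418 libraries. Reads were present in both G418 libraries for 644 members and absent from both for 189, and 531 had none in either untreated library. Such zeros mean that RRTS was not detectable at this depth. The levels of single genes are therefore described for 115 members for which the CDS density predicted at least 100 reads before the first 3′TC in each G418 library, a limit that does not use the reads found there.

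Among these 115 the mean RRTS with G418 had a median of 9.28% (quartiles 5.0% and 13.8%) and ran from 0% to 42.8%. Below 5% were 29 of them (25.2%), and above 20% were 14 (12.2%). The share above 20% was 35.4% for UAA followed by a pyrimidine (65 transcripts), 23.7% for UAG followed by a purine (76) and 42.3% for UGA followed by a purine (168). The share below 5% was 16.9%, 21.1% and 8.93% in these sets. Below 2% the order was another, with 9.57% of members, 12.3% of UAA followed by a pyrimidine, 9.21% of UAG followed by a purine and 5.95% of UGA followed by a purine. Values of the same gene in both G418 libraries went together (Pearson's r = 0.849 and Spearman's rho = 0.898 over the 113 members with reads in both, on log2 values; a description across genes, which share libraries and are not independent).

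**Figure D3:**
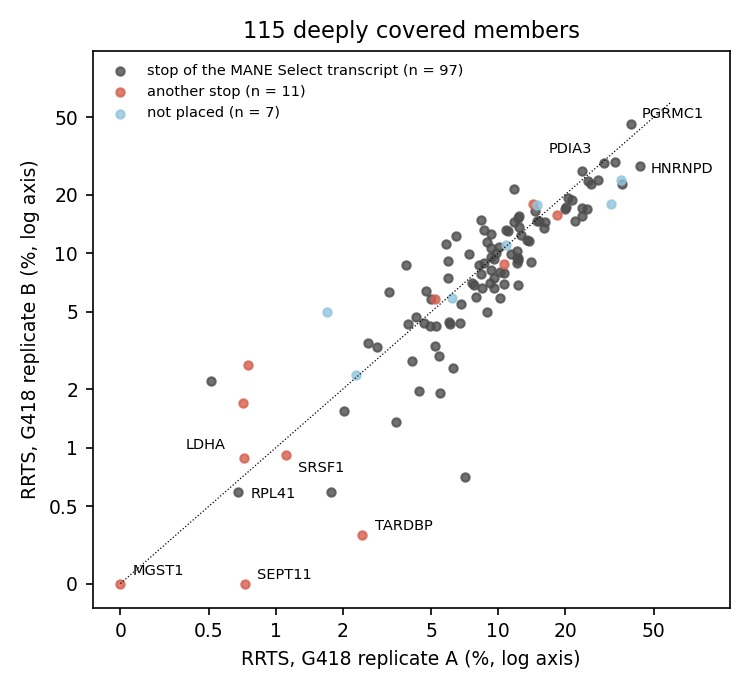
RRTS of 115 deeply covered members in G418 replicate A and replicate B, in percent on log axes, with values of 0 drawn at the lower end. Dark grey points use the stop codon of the MANE Select transcript, red points another one and blue points were not placed on the annotation; the dotted line marks equal values, and 7 of the 10 lowest members are red.

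The genes with the highest RRTS in G418-treated cells, among the 65 members with at least 20 reads before the first 3′TC in each G418 library, were HNRNPA3, PGRMC1, HNRNPD, GNAS, RPL12, SZRD1, SDCBP and PDIA3. They were selected on this value, which is given as a description. HNRNPA3 encodes an RNA-binding protein of the hnRNP family, and its RRTS was 0% and 4.87% in untreated cells and 53.1% and 50.5% with G418. It went from 2 reads in the untreated libraries together to 52 and 40 reads with G418, a ratio of 41.0 with a counting interval of 11.0 to 344 (95%, exact). HNRNPD, of the same family and a binder of AU-rich elements, had 3.33% and 6.93% in untreated cells and 43.3% and 27.9% with G418. Neither gene's groups overlapped, which selection on the G418 value favors.

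GNAS, which encodes the stimulatory G protein alpha subunit, had 0% and 3.22% in untreated cells and 37.9% and 33.2% with G418. The region up to its first 3′TC was 21 nt long. RPL12, at the base of the large subunit's stalk, had 0.88% and 2.36% against 28.5% and 39.1%. SDCBP, which encodes the adaptor syntenin-1, had 2.20% and 0% against 26.2% and 37.1%. In these 3 genes, as in HNRNPA3, every untreated value was below 5% and every G418 value above 20%. These genes were selected for high G418 values, so this separation adds no support. All 4 rested on at most 2 untreated reads each.

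PGRMC1, SZRD1 and PDIA3 already had a high RRTS without the drug, which need not be readthrough. PGRMC1, which encodes a heme-binding membrane protein, had 19.6% and 17.2% in untreated cells, from 47 and 19 reads, and 39.5% and 46.1% with G418, from 91 and 89 reads. Its ratio of G418 to untreated was 2.26 (counting interval 1.69 to 3.04). PDIA3, a disulfide isomerase of the endoplasmic reticulum, had 10.3% and 15.5% against 33.7% and 29.6%, a ratio of 2.72 (2.00 to 3.75). SZRD1, a small protein with an RNA-binding SUZ domain, had 13.0% and 26.0% against 31.4% and 34.6%.

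The members with the highest RRTS in untreated cells, among the 28 with at least 5 reads in each untreated library, were ARMCX6, MARCKS, SZRD1 and SEPT2, again selected on this value. ARMCX6, of the X-linked armadillo repeat family, held more ribosome density after its NTC than on its CDS, with RRTS of 163% and 501% in untreated and 263% and 304% in G418-treated cells. Its CDS predicted only 8.57 and 1.40 untreated reads, against 14 and 7 found. MARCKS, a substrate of protein kinase C, had 43.7% and 35.2% against 69.2% and 62.8% over a region of 18 nt. SEPT2, a cytoskeletal septin, was lower with G418, at 17.3% and 20.5% against 12.2% and 8.94%. None of ARMCX6, MARCKS and SEPT2 passed the test of readthrough described below (edgeR adjusted p = 0.412, 0.164 and 0.0738).

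The 8 lowest members of the 115 were MGST1, SEPT11, RPL41, LDHA, SRSF1, MRPL52, MTHFD1 and RPS26. They too were selected on the value given. MGST1, a microsomal glutathione transferase, had 0 reads in all 4 libraries, where 141 and 118 were predicted with G418, and the floor of 3 reads over the G418 libraries allows an RRTS of up to 1.16%. SEPT11, a septin, had 1 read in the G418 libraries together. LDHA, the muscle-type subunit of lactate dehydrogenase, had 0.72% and 0.89% with G418, from 3 reads in each library where 416 and 338 were predicted. SRSF1, a splicing factor, had 0.87% and 0.92% in untreated and 1.11% and 0.91% in G418-treated cells, so its groups overlapped.

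Which transcript was listed moved with these lowest values. The authors kept for each gene a transcript with the stop codon farthest 3′, and of 1365 members placed on GENCODE version 44 the stop codon was that of the MANE Select transcript in 1244 and another in 117, which lay downstream of it in 114. Of the 8 lowest members, MGST1, SEPT11, LDHA, SRSF1 and MTHFD1 had another stop codon, as did 7 of the 10 lowest. All 8 members with the highest RRTS among the 65 with at least 20 reads in each G418 library had the MANE Select stop codon. So did 59 of those 65. With G418, the 11 of the 115 with another stop codon had a median RRTS of 1.40% and the 97 with the MANE Select stop codon 9.42%, and 7 were not placed. Where cells use the upstream stop codon, CDS reads are counted for a transcript that does not carry this NTC, and the part of this in the low values was not tested. Over all compared members with the MANE Select stop codon (944), the ratios to the other sets in G418 were 0.556 for UAA followed by a pyrimidine, 0.558 for UAG followed by a purine and 0.452 for UGA followed by a purine.

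With the MANE Select stop codon, the lowest members included RPL41, MRPL52, RPS26, SNRPG, RANBP1, SLC25A6 and STMN3, a list drawn after the values were seen. RPL41 had 45 and 33 reads with G418, where its CDS density predicted 6628 and 5572, which gives 0.68% and 0.59%, against 0.04% and 0.11% in untreated cells. MRPL52, of the large mitochondrial ribosomal subunit, had 0.23% and 0% in untreated cells and 1.78% and 0.59% with G418. RPS26, of the small cytosolic subunit, had 2.20% and 0% against 0.51% and 2.21%, with no direction between the groups. RANBP1, which stimulates GTP hydrolysis by Ran, had 0.35% and 0% against 2.60% and 3.44%. A low level with G418 was therefore not the same as no rise, since RPL41 rose 11.2-fold (counting interval 4.90 to 31.3).

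**Figure D4:**
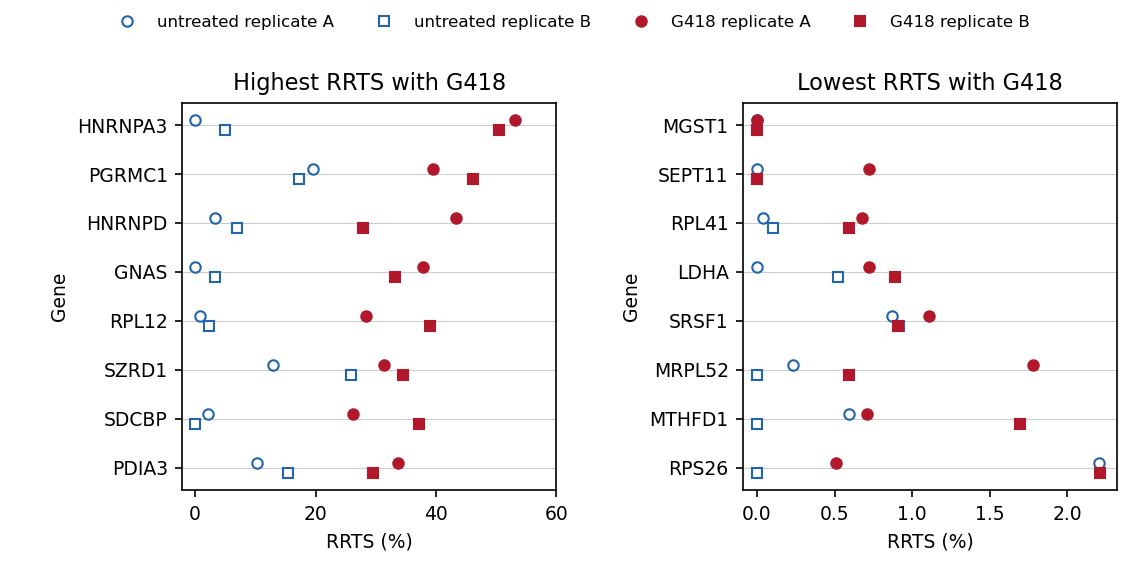
RRTS, in percent of the CDS density, of the 8 members selected for the highest (left) and the 8 for the lowest (right) mean with G418. The left genes come from members with at least 20 reads in each G418 library and the right genes from the 115 deeply covered members. The horizontal scales differ. Each symbol is 1 library, blue untreated and red G418; the left genes sit between 26.2% and 53.1% with G418 and the right genes at 2.21% or less.

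Several of these genes have near-identical copies in the genome. The authors kept a single alignment for reads that map to several places, so values of RPL12, RPL41, RPS26 and HNRNPA3, which have processed pseudogenes, are uncertain. None of the members selected above for high or low RRTS had a region that another protein-coding transcript reads as coding, which was so for 21 of the 1365 members placed.

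Sequence around the NTC differed in what it went with. It could be compared for 1008 members, and the values are aggregates with G418, without RPL41, given as a description. By the last base before the stop codon, U stood apart at 14.2% ± 0.273, against 11.0% ± 1.0 for C, 9.69% ± 0.0787 for G and 9.29% ± 0.733 for A (SD, n = 2). Members that ended in the serine codon UCU (33) had 17.0% ± 0.331 and those that ended in the lysine codon AAA (58) 7.33% ± 0.366. Bases at +5 to +9 gave values from 9.17% (C at +9) to 12.6% (A at +8), a narrower range than that of the last base. Members whose first 3′TC was UAG had 8.53% ± 0.539, against 12.1% ± 0.268 for UAA and 12.1% ± 0.925 for UGA. The counted region takes in the 3′TC itself, and the part of reads on it was not tested. RPL41 ends in an AAG codon and has UAG as its first 3′TC, and with it the value for G before the stop codon was 5.86% and that for UAG as first 3′TC 6.15%. The members also carried more A after the stop signal than 4425 other transcripts under the same rule, at +5 in 32.5% of members against 23.0%, and at +6 in 30.6% of members against 22.6%.

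Ribosome density was lower over the 3′UTR past the first 3′TC than before it. In 1018 members with at least 30 nt of 3′UTR beyond it, the density with G418 was 10.8% and 9.91% of the CDS density before it and 0.413% and 0.402% after it, a ratio of 3.83% and 4.05%. The stretch after it ran to the end of the 3′UTR, with a median of 1092.5 nt against 54 nt before it, and members held a median of 19 in-frame stop codons. The ratio is therefore an average over many further stop codons and does not give the density just past the first one. In untreated cells it was 2.26% and 2.07% before and 0.210% and 0.173% after. The density after the 3′TC was therefore higher in both G418 libraries than in both untreated ones.

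The change of single transcripts was tested with edgeR (quasi-likelihood) on reads before the first 3′TC, with CDS reads as offset and p-values adjusted over all 2827 transcripts with at least 10 such reads. Of the members, 332 had enough reads, and most of those reads came from G418-treated cells, so these are not all members. RRTS rose in 224 of the 332 (67.5%), where 82.6% of all transcripts tested rose, and fell in 0, where 0.0707% of all fell. No member fell at an unadjusted p of 0.05 with edgeR, and DESeq2 called 117 rises (37.9% of those with an adjusted p, against 52.9% of all) and 0 falls. The median log2 fold change was 2.38 in members and 3.18 in all transcripts tested. In 174 of the 332 the untreated libraries together held at most 3 reads, which makes the fitted change of these genes depend on the model. In the other 158 members the median log2 fold change was 1.34. It was 2.06, 2.30 and 2.45 in such transcripts with UAA followed by a pyrimidine, UAG followed by a purine and UGA followed by a purine. This split uses the untreated reads, so 1.34 does not stand for all members. Leaving out 1 library gave 136 to 211 rises among members, lowest without untreated replicate A (136, or 41.0%, against 55.3% of all) and without G418 replicate A (138, or 41.6%, against 52.9% of all). With 1 read as the minimum, 255 of 887 members rose (28.7%, against 44.9% of all).

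**Figure D5:**
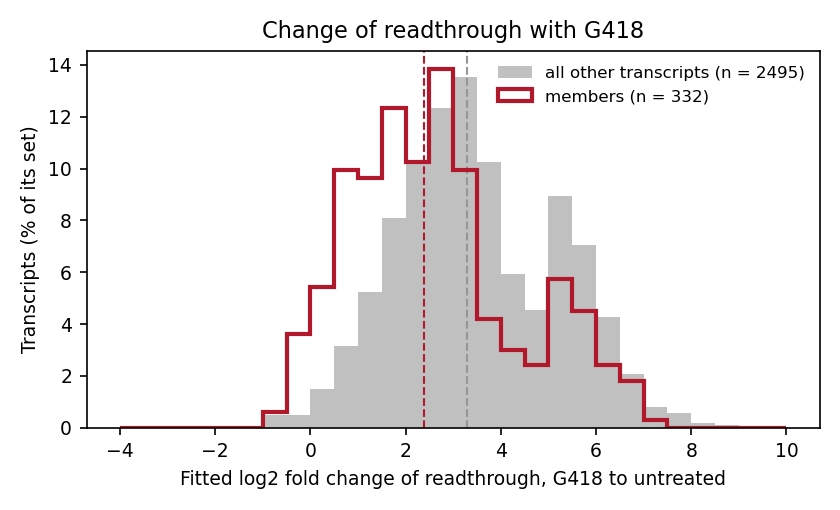
Fitted log2 fold change of readthrough, G418 to untreated, for 332 members (red line) and 2495 other transcripts (grey), as a percentage of each set. Dashed lines are the medians of each set, 2.38 in members and higher in the others; the largest values belong to genes with few or no untreated reads.

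The largest fitted log2 fold changes past the threshold and in the same direction within both letters were those of ARF4, SF3B6 and SEC23B. None had an untreated read, so their fitted changes and their order depend on the model, and bounds are given in their place. ARF4, a small GTPase of the Golgi, had 62.9% and 66.9% with G418, from 22 and 18 reads over a region of 18 nt. Its stop codon, at chr3:57572212-57572214 on the minus strand, lies in gagcuuucaaaacguUAAAugaaauuggau. Against a floor of 3 reads over the untreated libraries this was at least 11.5-fold higher. SF3B6, which contacts the branch point in splicing, had none against 5.18% and 3.34%, at least 7.46-fold higher. SEC23B, of the coat that leaves the endoplasmic reticulum, had none against 37.3% and 27.6%, at least 7.65-fold higher. SF3B6 thus rose from below detection to a level under that of the members as a whole. All 3 entered the test through their G418 reads alone and were selected on the fitted change, so their tests add no support.

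Cytosolic ribosomal proteins, which build the ribosome, were the gene list with the largest share of members. They were 23 of the 65 listed (35.4%), where members made up 15.3% of all transcripts. Summed over the list, RRTS was 1.46% and 1.39% in untreated cells and 4.85% and 4.25% with G418, below the 10.3% of all members. RPL41 made up 44.9% of the list's expected reads in both G418 libraries. Without it, an alternative chosen after seeing the data, RRTS was 2.60% and 2.38% in untreated cells and 8.25% and 7.23% with G418. RRTS rose in 15 of the 23 (65.2%, against 67.5% of members and 82.6% of all transcripts tested), with a median log2 fold change of 2.62 beside 2.38 over all members tested. RPL4, the member of the list with the most CDS reads, had 3.6% and 2.69% against 3.93% and 4.31% and did not pass the test (edgeR adjusted p = 0.462). RPL41 and RPS26, described above, belong to this list. Mitochondrial ribosomal proteins, 13 of 54 listed, had 2.08% and 2.28% against 7.96% and 5.70%, and 5 of the 8 tested rose (62.5%, against the same 82.6% of all).

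Respiratory chain and ATP synthase subunits gave 20 members of 66 listed, and 15 of the 17 tested rose (88.2%, against 67.5% of members and 82.6% of all transcripts tested). The median log2 fold change of those tested was 2.17, below the 2.38 of all members tested. Summed over the list, RRTS was 2.33% and 2.07% in untreated cells and 11.9% and 10.7% with G418. ATP5F1A, the alpha subunit of the ATP synthase, had 2.73% and 1.63% against 12.3% and 9.46%. NDUFA1, an accessory subunit of complex I, had 8.14% and 6.0% against 36.1% and 22.7%, a log2 fold change of 1.99 ± 0.22 (SE, edgeR adjusted p = 1.38e-18).

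The proteasome, which degrades ubiquitinated proteins, gave 9 members of 33 listed, and 6 of the 7 tested rose (85.7%, where 82.6% of all rose). PSMA5, of its alpha ring, had 0.97% and 2.24% against 9.55% and 7.47%. Of hnRNP and snRNP proteins, 9 of 29 listed were members and 6 of the 9 tested rose (66.7%, near the 67.5% of members and below the 82.6% of all). HNRNPM had 3.15% and 0.53% against 8.34% and 7.81%, far below HNRNPA3 and HNRNPD of the same family. Initiation and elongation factors gave 14 of 57, and 6 of 9 tested rose (66.7%, beside the same 67.5% and 82.6%). EIF3I, a subunit of the initiation factor eIF3, had 0.87% and 0% against 10.8% and 11.0%. Heat shock and J proteins gave 8 of 41, and 3 of 4 tested rose, beside 82.6% of all. HSP90B1, the chaperone of the endoplasmic reticulum, had 1.5% and 4.40% against 8.67% and 8.87%.

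Other lists gave few tested members. HIST1H2BC, which encodes a histone H2B and was 1 of 5 histone members of 35 listed, had 2.14% and 0.82% in untreated cells and 15.0% and 17.7% with G418, from 164 and 163 reads. Histone genes share nearly identical sequence, so reads of HIST1H2BC cannot be told from those of its copies and its values are uncertain. TUBB2A, of 3 tubulin members among 17 listed, had 6.66% and 0% against 37.0% and 34.5%, from 5 and 4 reads, and the sequence it shares with other tubulins makes it uncertain. LARS, the leucyl-tRNA synthetase and 1 of 3 members among 15 synthetases, had 24.3% and 8.94% against 11.2% and 18.3%, with groups that overlapped. ZNF24, of 43 zinc finger members among 275, had 2.11% and 0% against 9.06% and 4.02% and did not pass the test (edgeR adjusted p = 0.0653). MRPL13, with the most CDS reads among the members that are mitochondrial ribosomal proteins, had 1.70% and 0% against 17.2% and 4.94%. No subunit of the TRiC chaperonin (0 of 6) or of the MCM helicase (0 of 8) was a member.

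Of 10 listed genes for termination, recycling and rescue, UPF1 and GSPT2 were members. UPF1, the helicase of nonsense-mediated decay, had no untreated reads and 2 and 1 reads with G418, and GSPT2, a second gene for the release factor eRF3, had none against 5 and 1. Neither had enough reads to be tested. The gene for eRF1, ETF1, ends in UAGG and was not a member.

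CDS counts measure ribosomes on the members' coding sequences relative to all others. They were tested with edgeR in 1308 members, and 60 were higher (4.59%, against 5.31% of all 8494 transcripts tested) and 42 lower (3.21%, against 3.21% of all). The median log2 fold change was -0.02 in members and 0.00 in all, where TMM normalization sets the centre. These counts depended on the libraries and the tool. Leaving out 1 library gave from 3 to 118 higher and from 3 to 239 lower members, with 3 and 3 without G418 replicate A and 4 and 4 without G418 replicate B. Without untreated replicate A they were 117 (8.90%, against 7.30% of all) and 109 (8.30%, against 9.42%). Without untreated replicate B they were 118 (8.97%, against 11.6% of all) and 239 (18.2%, against 12.8%). Without G418 replicate A, 0.740% of all transcripts were higher and 0.176% lower, and without G418 replicate B 0.668% and 0.188%. DESeq2 called 13 higher (1.27%, against 1.78% of all) and 22 lower (2.15%, against 2.20%).

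NDUFA1 and DYNC1H1 were lower in every such fit. NDUFA1 had 354 and 338 CPM on the CDS in untreated cells and 213 and 214 with G418, a log2 fold change of -0.80 ± 0.09 (SE, edgeR adjusted p = 1.71e-06), while its RRTS rose as given above. DYNC1H1, the heavy chain of cytoplasmic dynein, had 408 and 362 against 241 and 243, a log2 fold change of -0.78 ± 0.09 (edgeR adjusted p = 2.68e-06). TUBA8, an alpha tubulin that shares sequence with others, had 31.9 and 36.1 against 21.1 and 18.9, and passed with 2 of the 4 libraries left out in turn. These were the 3 largest falls.

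The largest rises rested on few counts. MREG, which takes part in melanosome transport, had 1.04 and 1.74 CPM on the CDS in untreated cells and 5.28 and 2.70 with G418, a log2 fold change of 1.60 ± 0.48 (SE, edgeR adjusted p = 0.0345). SRGAP2B, a copy of SRGAP2 with which it shares reads, had 4.85 and 5.65 against 12.6 and 12.6. SH3GL3, an endophilin, had 3.12 and 7.38 against 10.2 and 11.5. DESeq2 gave no adjusted p for these 3 genes, and none of their calls held with every library left out in turn. Among cytosolic ribosomal protein members 5 of 23 were lower (21.7%, against 3.21% of all transcripts tested) and 0 higher, with a median log2 fold change of -0.18. The number lower was 0 without G418 replicate A, 1 without G418 replicate B, 11 without untreated replicate A and 15 without untreated replicate B, and DESeq2 called 2. The shares of all transcripts lower in those fits are the ones given above.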

How the data were processed

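HEK293T ribosome profiling libraries, 2 untreated and 2 treated with G418, were analysed as grouped by the labels. The authors collapsed reads by molecular identifier, removed noncoding RNA, aligned reads to hg38 with STAR guided by GENCODE (version 30) and kept 1 alignment per read and 1 transcript per gene, the one with the stop codon farthest 3′. The deposited counts are full-length reads (28 to 35 nt) per mRNA, 5′UTR, CDS and 3′UTR, not normalized. The deposited RPM values are these reads scaled to depth, and the deposited RPKM values divide them by region length. Each deposited ratio, RRTS among them, sets one region's density against the CDS. The deposited 5′UTR density was treated as a score and not used. CASAVA 1.8 is named in the submitters' processing notes.

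Whole reads were recovered from RPM (100% of values whole within 0.01). Expected reads were CDS reads over CDS length, without its first 18 and last 15 nt, times the region length without the 6 nt after the NTC. The region length includes the first 3′TC. Recovered reads were used for RRTS and deposited counts for the CDS test. Because RPFs carry identifiers, reads were taken as molecules, and intervals and floors (3 reads) cover counting error only. The members and gene lists were chosen with earlier results of these data known. Sequences were matched to GENCODE version 44 for 8504 of 9271 transcripts and 1365 of 1416 members (96.4%), by stop signal, region length and CDS length.

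Readthrough and CDS counts were tested with edgeR 4.0.16 (R 4.3.3; quasi-likelihood, adjusted p below 0.05; TMM and its low-count filter for CDS), with DESeq2 1.42.0 as alternative. SE is the log2 fold change over the square root of F. On simulated data with 200 transcripts changed 4-fold, edgeR recovered 71.0% for readthrough (1.39% of calls false, 2827 transcripts) and DESeq2 48.5%, and edgeR 99.5% for CDS counts (3.40% false, 8568 transcripts). Named genes were the 8 highest and 8 lowest by RRTS with G418 and the 4 highest in untreated cells, within the read limits given above. They also included the 3 largest changes in each direction and test, the termination genes, and the member of each list with the most CDS reads. Python 3.11.15, scipy 1.17.1, statsmodels 0.14.6 and matplotlib 3.10.9 were used.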

Additional observations from a re-analysis of the deposited data

How the results depend on the processing

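The aggregate RRTS of members (2.23% untreated, 10.3% with G418) and its ratio of 4.61 kept their direction throughout. Equal weight per transcript gave 4.13%, 17.6% and 4.27. Regions of at most 100 nt gave 2.95%, 12.4% and 4.22. Without the 10 transcripts with the most reads the untreated value was 2.05% and the ratio 4.79. Leaving out 1 library gave ratios of 4.38 to 4.86. The settings without RPL41, without regions that code in another transcript and with the MANE Select stop codon were chosen after seeing the data. Without RPL41 the levels were 2.46% and 11.3%, without regions that code elsewhere the ratio was 4.50, and with the MANE Select stop codon it was 4.53.

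The members stayed below UAA followed by a pyrimidine, UAG followed by a purine and UGA followed by a purine in G418 (ratios 0.596, 0.692 and 0.472) under every alternative run. In that order the ratios were 0.539, 0.755 and 0.568 with equal weight, 0.664, 0.666 and 0.455 without the 10 transcripts, 0.617, 0.916 and 0.526 at 100 nt, 0.655, 0.761 and 0.519 without RPL41, and 0.556, 0.558 and 0.452 with the MANE Select stop codon. Poisson regression with terms for length and CDS density gave 0.541, 0.591 and 0.416. The ratio to UAG was 0.705 with at least 500 mRNA reads, and the first 2 ratios were 0.619 and 0.620 without regions that code elsewhere. UAAA against UAAG (0.925) was 0.793 without the 10 transcripts and turned to 1.16 with equal weight, 1.05 at 100 nt and 1.09 without RPL41. RPL41 is a UAAA transcript with few reads and many expected, so leaving it out raises UAAA. For the others the cause was not tested.

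Readthrough rises numbered 224 with edgeR and 117 with DESeq2, which gave an adjusted p for 309 of the 332 members. With at least 20 reads, 149 of the 188 members rose (79.3%, against 92.4% of all). With at least 1 read, 255 of the 887 rose (28.7%, against 44.9%). Leaving out 1 library gave 136 to 211. CDS calls (60 higher, 42 lower) were 13 and 22 with DESeq2 and 3 to 118 and 3 to 239 with 1 library left out. With 1 library left out, the lone sample is assumed to vary like the other group. The replicate letter is shared by the conditions but is not stated to pair them. As a replicate block it gave 93 and 71 CDS calls (7.11% and 5.43%, against 7.28% and 5.32% of all) and 171 readthrough rises (51.5%, against 65.5% of all). The differences between A and B correlated between conditions at 0.166 for RRTS and 0.142 for CDS counts, a hint from the data and not the design. Depth limits single genes most in untreated replicate B, the shallowest library.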
